A study of Mus musculus with 6 samples.

Results

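The opioid peptide precursor genes Penk, Pdyn and Pnoc and the opioid receptor genes Oprm1, Oprk1 and Oprl1 were followed in the amygdala of mice on a zinc diet or a control diet. The members were all probe sets that the platform annotation gives to these 6 genes, which came to 12 of the 45101 probe sets of the array: 3 for the precursors and 9 for the receptors. All mice were males of the inbred strain 129S1/SvImJ (S1), aged 8 to 10 weeks, with no transgene or other allele named, and the amygdala was taken 2 h after fear extinction training. The zinc diet group held 3 mice (numbered 3, 7 and 10 in the labels) and the control diet group held 3 mice (numbered 1, 9 and 11). The labels write the first diet as "Zn" or "ZnR" and give neither its zinc content nor its duration. They do not say if zinc was added or restricted in it, so "zinc diet" is used here only as the name of the group. Every mouse was trained, so no untrained baseline is at hand. Total RNA of each mouse was hybridised to 1 Affymetrix Mouse430_2 chip, whose probe sets are groups of short probes near the 3′ ends of transcripts, and each value below is a log2 probe set level as the authors deposited it.

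Opioid peptides are cut from large precursor proteins inside secretory granules. Penk encodes proenkephalin, the source of the enkephalins, which act on delta and mu receptors. Pdyn encodes prodynorphin, whose dynorphins act mainly on the kappa receptor, and Pnoc encodes the precursor of nociceptin, the ligand of the nociceptin receptor. Oprm1, Oprk1 and Oprl1 encode the mu, kappa and nociceptin receptors, which couple to inhibitory G proteins, lower cyclic AMP and open inwardly rectifying potassium channels. In the amygdala the enkephalin and dynorphin genes are known from neurons of the central nucleus, and mu receptors are dense on intercalated cells. In the striatum, which borders the amygdala, Penk marks spiny neurons of the indirect pathway and Pdyn those of the direct pathway.

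Of the 7 member probe sets tested, 0 passed the adjusted threshold of 0.05 in limma, a linear model that shares variance information across probe sets. Over all 22877 probe sets tested the share past that threshold was 0.0%, so not passing it does not show that a difference is small. Penk was 1.27-fold higher in zinc diet mice, with every zinc diet mouse above every control mouse, and Pnoc was 1.21-fold lower with every zinc diet mouse below every control mouse. Pdyn and Oprk1 had higher zinc diet means with overlapping diets, and Oprl1 showed next to no difference on its brightest probe set. Oprm1 gave values too low to be told from background, with no detection call at hand. Without overlap, 1 of the 7 was higher and 1 was lower, where 6.66% of all probe sets tested were higher and 5.33% were lower in that way. Penk alone was higher at an unadjusted p under 0.01, against 1.04% of all probe sets, and with 1 mouse left out its unadjusted p in limma was not under 0.01 in 4 of 6 fits (0.00451 to 0.0197 over the 6). At an unadjusted p under 0.05 the members gave 1 higher and 0 lower, against 3.63% higher and 2.75% lower of all probe sets. The median log2 change was 0.041 over the 7 members and 0.0091 over all probe sets tested. The 7 include 3 Oprl1 probe sets and changes of both signs, so their median does not describe the size of the changes. Over all probe sets tested the median absolute log2 change was 0.087.

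**Figure D1:**
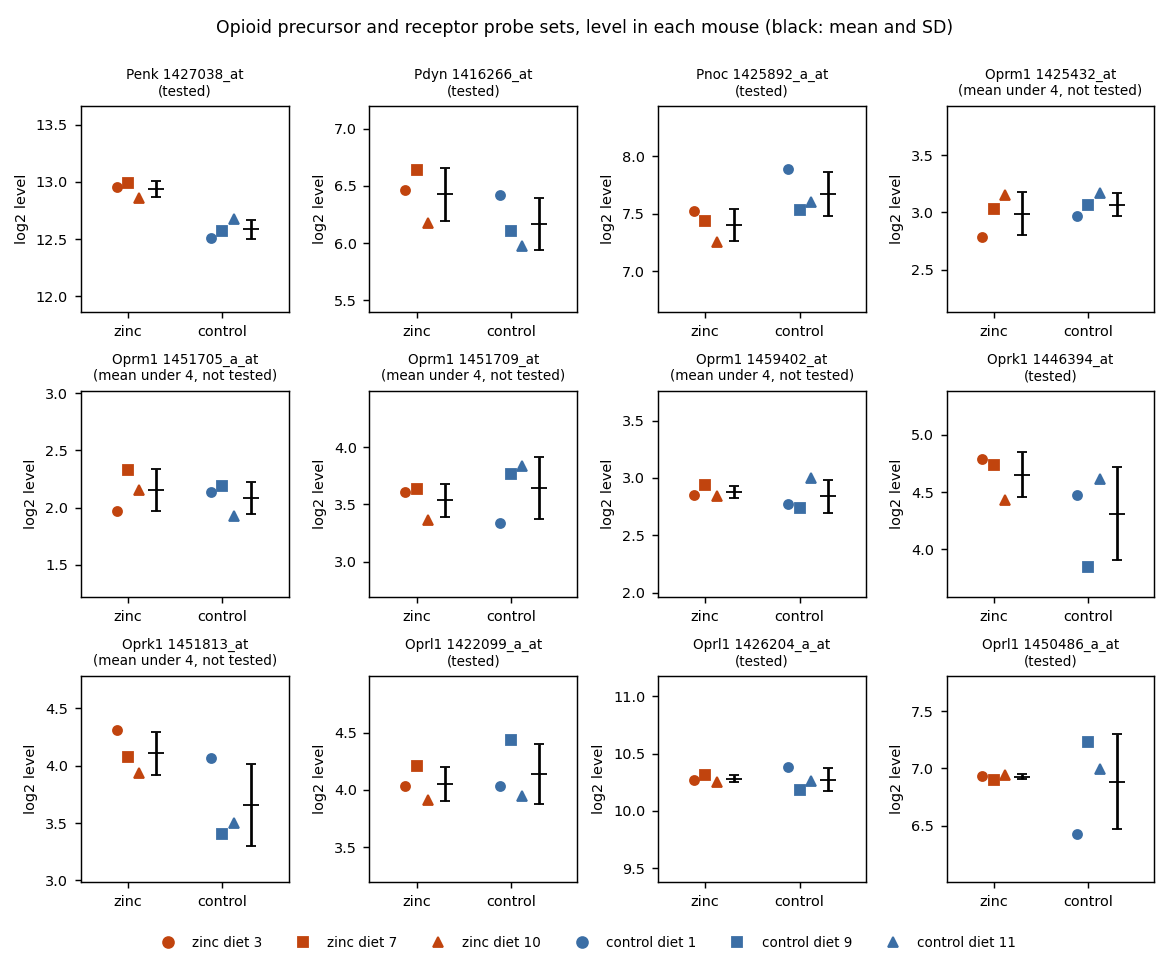
Log2 level of the 12 probe sets in each of the 6 mice, zinc diet left and control diet right, with the mean and SD of each diet in black and every panel spanning 1.8 log2 units. Penk and Pnoc are the panels in which the diets do not overlap, and the 4 Oprm1 panels and 1 Oprk1 panel lie under the filter of 4.

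Start regions were available in the supplied RefSeq table for Pdyn, Oprl1 and Oprm1, with 2, 3 and 3 entries, and they are shown because the diet and the training raise the question of metal-responsive and activity-responsive letters there. Each window runs from 250 bases before to 50 bases after a transcript start on GRCm38.p6. Both strands were searched for TGCNCNC, a loose form of the core of metal response elements, for TGACG, the core of cyclic AMP response elements, and for TGANTCA, the AP-1 motif. For each gene 1 window is printed 5′ to 3′, the one with the most matches or, where windows tied, the first by position, and the capitals mark TGCNCNC matches on either strand.
Pdyn start region, chr2:129698609-129698908, minus strand: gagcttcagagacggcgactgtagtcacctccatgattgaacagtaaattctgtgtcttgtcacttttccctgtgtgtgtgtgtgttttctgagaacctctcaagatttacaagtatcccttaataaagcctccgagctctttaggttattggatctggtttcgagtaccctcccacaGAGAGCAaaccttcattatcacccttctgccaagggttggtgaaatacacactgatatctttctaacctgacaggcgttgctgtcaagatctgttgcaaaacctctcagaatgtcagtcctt
Oprl1 start region, chr2:181714766-181715065, plus strand: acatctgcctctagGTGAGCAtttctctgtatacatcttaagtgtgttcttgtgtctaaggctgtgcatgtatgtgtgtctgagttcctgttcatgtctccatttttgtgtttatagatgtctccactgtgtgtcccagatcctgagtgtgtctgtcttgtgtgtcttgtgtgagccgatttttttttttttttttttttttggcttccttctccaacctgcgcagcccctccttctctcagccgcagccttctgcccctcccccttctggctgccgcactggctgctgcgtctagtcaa
Oprm1 start region, chr10:6788320-6788619, plus strand: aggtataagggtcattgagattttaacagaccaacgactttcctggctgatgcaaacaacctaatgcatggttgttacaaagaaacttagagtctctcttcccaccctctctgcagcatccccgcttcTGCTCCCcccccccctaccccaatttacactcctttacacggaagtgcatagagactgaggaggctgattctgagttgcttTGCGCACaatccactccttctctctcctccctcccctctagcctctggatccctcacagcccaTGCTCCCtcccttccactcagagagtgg
The Pdyn match lay 72 bases before the start and the Oprl1 match 236 bases before it. Each of the 3 Oprl1 windows held 1 match, and those not printed had theirs 65 and 181 bases before their own starts. The Oprm1 window held 3 matches, the nearest upstream one 41 bases before the start, and an overlapping window with a start 6 bases further on held the same 3. TGCNCNC is common, with a match in 51.0% of the 32851 start windows of the table. TGACG was in 20.8% and TGANTCA in 7.81% of all windows, and neither was found in any of the 8 windows of these genes. A match describes letters and is not a site of binding.

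Penk, the enkephalin gene, had a high signal and close values within each diet. Its log2 level on probe set 1427038_at was 12.95, 12.99 and 12.86 in zinc diet mice 3, 7 and 10, against 12.51, 12.57 and 12.68 in control mice 1, 9 and 11. The lowest zinc diet mouse stood above the highest control mouse, so the diets did not overlap. The mean was 12.94 ± 0.070 for the zinc diet against 12.59 ± 0.084 for the control diet (SD, n = 3 each). The difference was 0.35 ± 0.081 (SE) on the log2 scale, with a 95% interval from 0.16 to 0.54, or from 1.11-fold to 1.46-fold. It did not pass over all probe sets (limma adjusted p = 0.504, unadjusted p = 0.00377), and 0.739% of the probe sets tested had a p as small or smaller. In bulk tissue, more cells of a type and more RNA per cell cannot be told apart.

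Pdyn had a lower signal and a wider spread. Its level on probe set 1416266_at was 6.47, 6.64 and 6.17 in zinc diet mice 3, 7 and 10, against 6.42, 6.11 and 5.97 in control mice 1, 9 and 11. Control mouse 1 stood above zinc diet mouse 10, so the diets overlapped. The difference of 0.26 ± 0.16 (SE) was of the size of the spread between mice (SD 0.24 under the zinc diet and 0.23 under the control diet, n = 3 each; limma adjusted p = 0.848). Its 95% interval, from 0.919-fold to 1.56-fold, includes both no change and a change larger than that of Penk. Without zinc diet mouse 7 the difference was 0.15, and without control mouse 11 it was 0.16.

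Pnoc differed in the opposite direction. Its level on probe set 1425892_a_at was 7.52, 7.43 and 7.25 in zinc diet mice 3, 7 and 10, against 7.89, 7.53 and 7.60 in control mice 1, 9 and 11. All zinc diet mice were lower, by a margin of 0.01 between zinc diet mouse 3 and control mouse 9. The difference was -0.27 ± 0.12 (SE), a zinc diet to control ratio between 0.676 and 1.02 (95% interval), and it did not pass (limma adjusted p = 0.799). Without control mouse 1, the highest of the 6, it was -0.16. Penk minus Pnoc, a difference of log2 levels within a mouse, averaged 5.53 ± 0.090 under the zinc diet and 4.91 ± 0.26 under the control diet (SD, n = 3 each). This contrast between both precursors was not tested, because it follows from the values of the members just given.

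**Figure D2:**
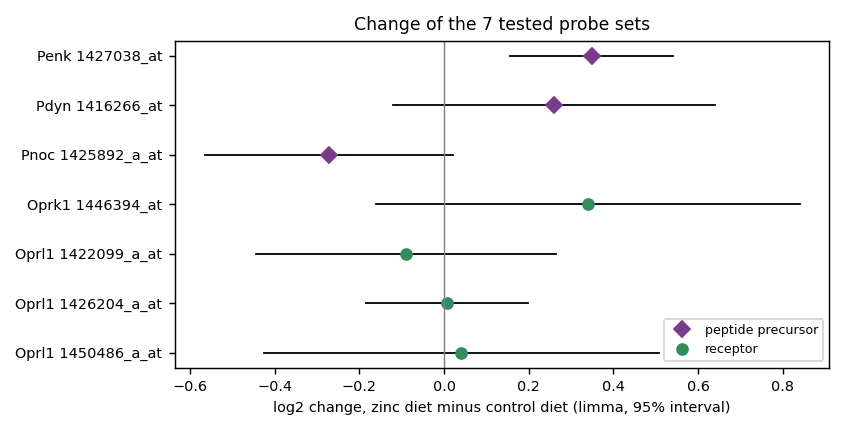
Log2 change of the 7 tested probe sets, zinc diet minus control diet, with limma's 95% intervals as lines, diamonds for peptide precursors and circles for receptors. The interval of Penk, from 0.16 to 0.54, is the one that leaves out 0, while that of Pnoc ends at 0.022.

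Among the receptors, the kappa receptor gene Oprk1 had low signals on both of its probe sets. On 1446394_at the level was 4.79, 4.74 and 4.43 in zinc diet mice 3, 7 and 10, against 4.47, 3.85 and 4.61 in control mice 1, 9 and 11. The diets overlapped, and the lowest value belonged to control mouse 9. The difference was 0.34 ± 0.21 (SE; limma adjusted p = 0.849), with a 95% interval from 0.895-fold to 1.79-fold, and it was 0.11 without control mouse 9. The second probe set, 1451813_at, had a mean of 3.88 over all mice, under the filter of 4, and so was not part of the test. It read 4.31, 4.08 and 3.93 for zinc diet mice and 4.07, 3.40 and 3.50 for control mice, again with control mouse 9 lowest and control mouse 1 within the zinc diet range. With no filter its difference was 0.45 ± 0.18 (SE; limma adjusted p = 0.922, unadjusted p = 0.0406). Both probe sets thus had a higher zinc diet mean, and on neither did the diets separate. The level of the second cannot be told from background here, so it adds no measured direction.

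The nociceptin receptor gene Oprl1 had 3 probe sets, which differed in signal and in spread. The brightest, 1426204_a_at, read 10.27, 10.32 and 10.25 in zinc diet mice 3, 7 and 10, against 10.38, 10.18 and 10.26 in control mice 1, 9 and 11. The zinc diet mice lay inside the range of the control mice. The difference was 0.0073 ± 0.080 (SE; limma adjusted p = 0.994), and its 95% interval bounds the ratio between 0.881 and 1.15. This is the narrowest interval of the 7 members on the log2 scale, and it leaves out a change as large as the one estimated for Penk, though the difference between both changes was not tested.

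The other Oprl1 probe sets were less precise. On 1450486_a_at the zinc diet mice were close together at 6.94, 6.90 and 6.94, while control mice 1, 9 and 11 read 6.43, 7.23 and 6.999. The control mice lay on both sides of the zinc diet mice, with SDs of 0.021 under the zinc diet and 0.42 under the control diet (n = 3 each). The difference was 0.041 ± 0.20 (SE; limma adjusted p = 0.986), and it was -0.19 without control mouse 1 and 0.21 without control mouse 9. On 1422099_a_at, close to the filter, levels were 4.03, 4.21 and 3.91 under the zinc diet and 4.03, 4.44 and 3.94 under the control diet, with a difference of -0.090 ± 0.15 (SE; limma adjusted p = 0.952). Control mouse 9 was highest on both of these probe sets and lowest on the brightest one, so the probe sets of this gene did not order the control mice alike. Levels of different probe sets depend on their probes and are not compared.

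The mu receptor gene Oprm1 was under the filter on all 4 of its probe sets. The highest, 1451709_at, read 3.61, 3.63 and 3.37 in zinc diet mice 3, 7 and 10, against 3.33, 3.76 and 3.83 in control mice 1, 9 and 11. The other 3 lay between 1.97 and 3.16 in the zinc diet group and between 1.92 and 3.17 in the control group. The diets overlapped on each of them. With no filter the 4 differences were -0.11 ± 0.15, -0.077 ± 0.11, 0.067 ± 0.12 and 0.038 ± 0.094 (SE), with limma adjusted p-values from 0.967 to 0.987. With no detection call at hand, a value this low cannot be told from background, so these data give no measure of mu receptor mRNA and no direction for it. The 6 markers of intercalated cells, where this receptor is known to be dense, all passed the filter. Among them Drd1 is also a striatal marker here, so their passing does not show which cells were sampled.

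The delta receptor gene Oprd1 and the proopiomelanocortin gene Pomc, which completes the opioid precursors, were also under the filter. Oprd1 read 3.47, 3.60 and 3.90 under the zinc diet and 3.40, 3.55 and 3.26 under the control diet. The brighter Pomc probe set lay between 3.77 and 3.86 in the zinc diet group and between 3.82 and 3.99 in the control group. Neither separated the diets. Ogfr, the opioid growth factor receptor gene, which is not a G protein-coupled receptor, was measured at 8.17 to 8.28 for zinc diet mice and 7.93 to 8.34 for control mice, a difference of 0.042 ± 0.12 (SE; limma adjusted p = 0.976).

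Leaving out each mouse in turn kept the direction of Penk, Pdyn, Pnoc and Oprk1 and turned that of each Oprl1 probe set at least once. Penk stayed between 0.31 and 0.39. Pdyn ran from 0.15 to 0.39, Pnoc from -0.34 to -0.16 and Oprk1 from 0.11 to 0.49. Within the zinc diet, mouse 10 had the lowest value on 9 of the 12 probe sets, including those of all 3 precursors and both of Oprk1, and mouse 7 the highest on 7. In the control diet no mouse was lowest on more than 5. Over the 7 tested probe sets alone, zinc diet mouse 10 was lowest on 6 and zinc diet mouse 7 highest on 4. No control mouse was lowest on more than 3 of those 7.

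**Figure D3:**
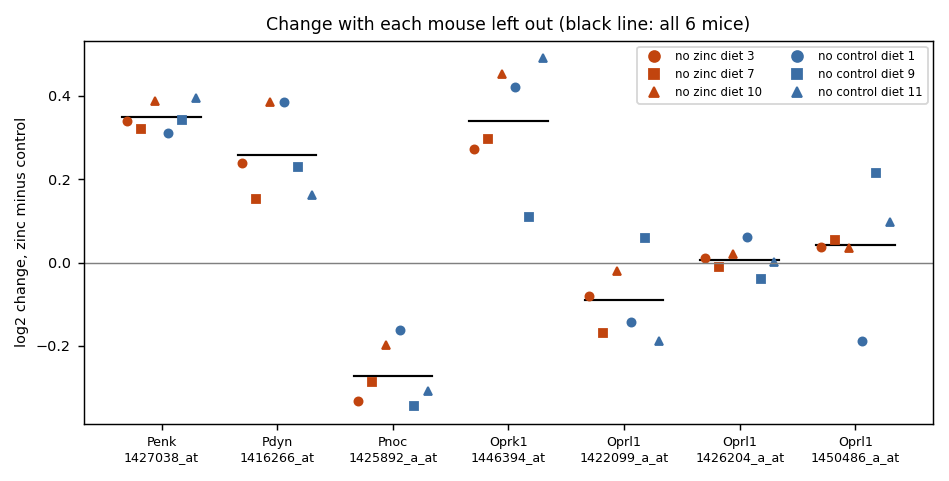
Log2 change of each tested probe set, zinc diet minus control diet, with all 6 mice (black line) and with each mouse left out (symbols, coloured by the diet of the mouse left out). Penk stays between 0.31 and 0.39, Oprk1 drops to 0.11 without control mouse 9, and the Oprl1 symbols fall on both sides of 0.

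Genes that make, destroy or respond to opioid peptides were read from lists, with 1 probe set per gene, and 0 genes of any list passed over all probe sets. Enzymes and granule proteins of precursor processing were nearly level: of 14 genes tested, 7 had a higher and 7 a lower zinc diet mean, 0 had an unadjusted p under 0.05, against 3.63% higher and 2.75% lower of all probe sets tested, and the median log2 change was 0.00073. Cpe, the carboxypeptidase that trims the cut peptides, is in this list. Its smallest p-values belonged to the proprotein convertase genes Furin (0.11 ± 0.073 SE) and Pcsk5 (-0.16 ± 0.12), the carboxypeptidase D gene Cpd (-0.15 ± 0.14) and Pcsk1n (-0.087 ± 0.10), which encodes an inhibitor of prohormone convertase. Furin was the single gene of the 14 whose diets did not overlap, where 6.66% of all probe sets tested were higher and 5.33% lower in that way.

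Among 12 tested genes for peptidases able to break down opioid peptides, the largest difference was in Mme, which encodes neprilysin, the cell-surface enzyme also called enkephalinase. Mme read 6.89, 7.14 and 6.74 in zinc diet mice 3, 7 and 10, against 5.51, 6.03 and 6.07 in control mice 1, 9 and 11. Every zinc diet mouse was above every control mouse. The difference was 1.05 ± 0.18 (SE), or 2.08-fold, and did not pass (limma adjusted p = 0.346). Dpp7 (-0.21 ± 0.088) and Ace (-0.16 ± 0.087), which encodes angiotensin-converting enzyme, were lower without overlap on their brightest probe sets, and Thop1 differed by 0.19 ± 0.14 (SE). Another tested Dpp7 probe set, 1435680_a_at, overlapped at -0.0099 ± 0.082 (SE), and Ace lay close to the filter of 4. The median of the list was 0.013. At an unadjusted p under 0.05 it had 1 gene of 12 higher and 0 lower, against 3.63% and 2.75% of all probe sets tested. Without overlap 1 was higher and 2 were lower, against 6.66% and 5.33% of all probe sets tested.

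Of 19 tested genes for G protein subunits, channels and cyclases downstream of the receptors, Gng7 and Adcy5 were higher at an unadjusted p under 0.05 and 0 were lower, against 3.63% higher and 2.75% lower of all probe sets tested. Gng7, a G protein gamma subunit gene, read 9.68, 9.90 and 9.75 under the zinc diet and 9.17, 9.26 and 9.41 under the control diet (difference 0.50 ± 0.098 SE; limma adjusted p = 0.414). Adcy5, the gene of the main striatal adenylyl cyclase, read 10.40, 10.66 and 10.52 in the zinc diet group and 10.11, 10.12 and 10.17 in the control group (0.39 ± 0.088 SE; limma adjusted p = 0.494). On these probe sets the diets were separate, while the dimmer tested Adcy5 probe set, 1447696_x_at, overlapped at 0.41 ± 0.16 (SE). The N-type calcium channel gene Cacna1b (-0.13 ± 0.078) was lower without overlap on its brightest probe set and the G protein beta subunit gene Gnb5 (0.12 ± 0.082) overlapped. Its other tested Cacna1b probe sets overlapped, at -0.043, -0.018 and 0.026. Without overlap 2 of the 19 genes were higher and 1 was lower, against 6.66% and 5.33% of all probe sets tested. The median was -0.017.

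Of 17 tested genes for receptor desensitisation and trafficking, 1 was higher at an unadjusted p under 0.05 and 0 were lower on the brightest probe set of each gene, against 3.63% higher and 2.75% lower of all probe sets tested. The median was -0.0095. The gene counted was Rgs9, whose product speeds the shut-off of inhibitory G proteins, at 7.67, 7.99 and 7.82 for zinc diet mice and 5.77, 6.14 and 6.19 for control mice. Its difference, 1.80 ± 0.14 (SE; limma adjusted p = 0.0763), was the largest of the pathway genes. Rgs4 (0.14 ± 0.083) was higher without overlap on its brightest probe set, whereas Rgs19 (0.12 ± 0.086) and Flna (0.15 ± 0.13) overlapped. The dimmer Rgs4 probe sets, 1416287_at and 1448285_at, overlapped as well. Without overlap 2 of the 17 genes were higher and 0 were lower, against 6.66% and 5.33% of all probe sets tested. Over all 32 tested probe sets of the list, 1 was higher and 1 lower at an unadjusted p under 0.05. The lower one was a dimmer probe set of the receptor kinase gene Grk3, 1434450_s_at (-0.22 ± 0.079 SE; limma adjusted p = 0.746), while the brightest Grk3 probe set overlapped between the diets at -0.12 ± 0.12 (SE).

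**Figure D4:**
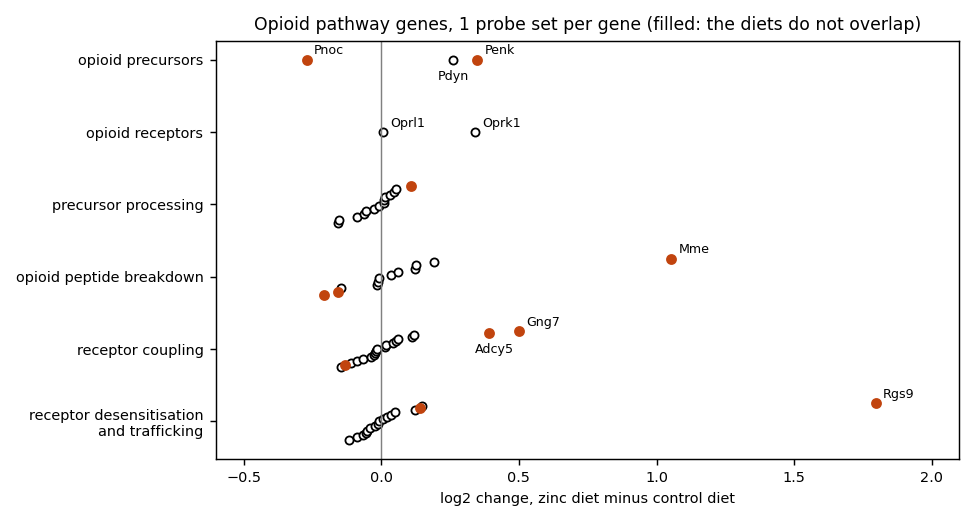
Log2 change, zinc diet minus control diet, of each tested member gene and each tested gene of the processing, breakdown, coupling and desensitisation lists. Each gene has 1 probe set, filled points mark diets that do not overlap, and Ogfr is not drawn. Most genes lie close to 0, and Rgs9, Mme, Gng7 and Adcy5 stand to the right of the others.

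Markers of striatal spiny neurons differed along with Penk and with these pathway genes. All 17 striatal markers with a probe set passed the filter and were higher in zinc diet mice without overlap, against 6.66% of all probe sets tested. The list was chosen with earlier results of these data known, so this count is a description and not independent support. Their mean level was 7.94 to 8.32 under the zinc diet and 6.68 to 6.98 under the control diet. Rgs9 and Adcy5 belong to that list. By mouse, zinc diet mouse 7 was highest in the marker mean, in Penk and in Mme, and control mouse 1 was lowest in all of them. The size was smaller for Penk, at 0.35, than the median of 0.96 over the markers. Drd2, which indirect pathway neurons share with Penk, differed by 1.66 ± 0.25 (SE), and Tac1, which direct pathway neurons share with Pdyn, by 0.35 ± 0.096 (SE). Changes of the 17 markers ran from 0.32 to 3.41. Drd2 and Tac1 were named after their values were seen, and the 2 pathways were not compared. The part of the striatal marker difference in the Penk result was not tested.

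Hypothalamic markers varied between mice in both diets. Avp, the vasopressin gene, whose magnocellular neurons are known to hold dynorphin as well, read 9.84, 9.14 and 4.73 in zinc diet mice 3, 7 and 10, against 10.96, 4.38 and 5.63 in control mice 1, 9 and 11. Sim1, a transcription factor gene of the same nuclei, read 4.69, 5.03 and 3.39 in the zinc diet group and 5.85, 2.98 and 3.67 in the control group. The mice high in both genes, zinc diet mice 3 and 7 and control mouse 1, were the 3 mice with the highest Pdyn. Within these 3 the order differed, with Avp highest in control mouse 1 and Pdyn highest in zinc diet mouse 7. Control mouse 11 had the lowest Pdyn but more Avp than zinc diet mouse 10 and control mouse 9. Avp and Sim1 were named after their values were seen. Of the 10 hypothalamic markers with a probe set 6 passed the filter, with a mean level of 4.17 to 6.22 for zinc diet mice and 3.81 to 5.82 for control mice, and Hcrt, Pomc, Fezf1 and Nkx2-1 did not. The part of these cells in the Pdyn values was not tested.

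**Figure D5:**
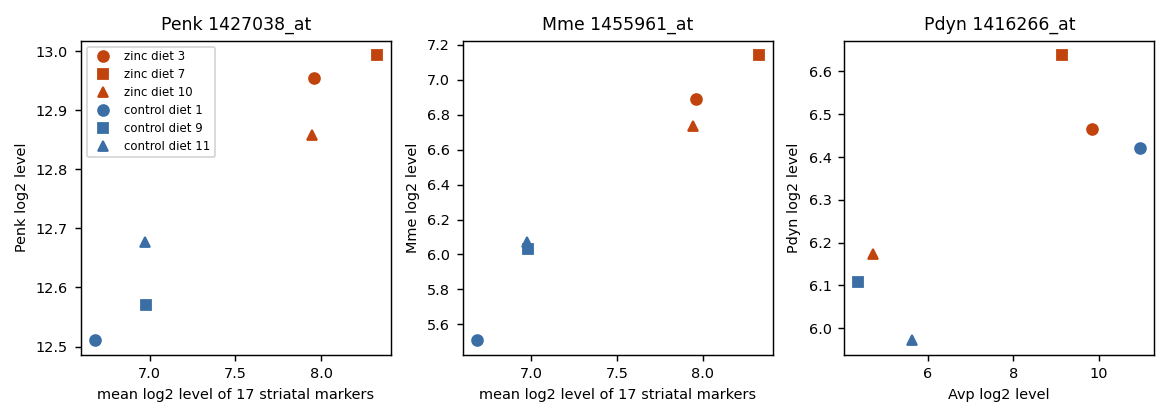
Log2 level of Penk and Mme against the mean log2 level of 17 striatal markers, and of Pdyn against Avp, with 1 symbol per mouse. The zinc diet mice lie to the right in the first and second panels, and in the third panel the 3 mice with Avp above 9 have Pdyn above 6.4.

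Markers of the amygdala itself were present. The 10 central amygdala markers all passed the filter, and 8 had a higher and 2 a lower zinc diet mean, with changes from -0.15 to 0.44. Without overlap 2 were higher and 0 were lower, against 6.66% and 5.33% of all probe sets tested. The mean level of the list was 9.50 to 9.53 under the zinc diet and 9.16 to 9.54 under the control diet. The lowest of these, 9.16, belonged to control mouse 9, the mouse with the lowest Oprk1. Choroid plexus markers averaged 8.32 in that mouse, against 5.48 to 6.13 in zinc diet mice and 5.85 to 6.12 in the other control mice. The 6 intercalated cell markers averaged 9.57 to 9.77 in the zinc diet group and 9.12 to 9.32 in the control group. All 6 had a higher zinc diet mean, with changes from 0.13 to 0.86 and a median of 0.39. Without overlap 3 of the 6 were higher, against 6.66% of all probe sets tested. Drd1 is in both this list and the striatal list, and it is one of these 3. Whether the other genes of the list are particular to intercalated cells was not examined, so the values are not assigned to those cells. The 12 interneuron markers, beside which Pnoc may be read, averaged 10.33 to 10.41 under the zinc diet and 10.31 to 10.48 under the control diet. Singly they differed in both directions, 6 higher and 6 lower, with changes from -0.54 to 0.74. Without overlap 1 was higher and 2 were lower, against 6.66% and 5.33% of all probe sets tested. At an unadjusted p under 0.05 in limma 0 were higher and 1 was lower, against 3.63% and 2.75%. All 6 tested choroid plexus markers had a lower zinc diet mean, with a median change of -0.71. Without overlap 1 of them was lower, against 5.33% of all probe sets tested. Myelin markers averaged 9.06 to 9.84 under the zinc diet and 8.58 to 9.21 under the control diet. These means overlapped, yet all 9 tested myelin genes had a higher zinc diet mean, with a median change of 0.44. Without overlap 1 of the 9 was higher, against 6.66% of all probe sets tested. The 8 tested basolateral excitatory neuron markers also overlapped in their mean (zinc diet 9.88 to 10.07, control diet 9.87 to 9.91), but singly they differed in both directions. Of these 8, 2 were higher and 3 lower without overlap, against 6.66% and 5.33% of all probe sets tested, and the changes ran from -0.68 to 0.77. At an unadjusted p under 0.05 in limma 3 were higher and 2 lower, against 3.63% and 2.75% of all probe sets tested. Under 0.01, 2 were higher and 2 lower, where 1.04% of all probe sets tested were higher. In either direction, 349 of the 22877 probe sets tested were under 0.01. Astrocyte markers (zinc diet 10.32 to 10.46, control diet 10.30 to 10.50), microglia markers (zinc diet 8.08 to 8.14, control diet 8.06 to 8.16) and endothelial and pericyte markers (zinc diet 7.31 to 7.37, control diet 7.21 to 7.36) overlapped in their means, with median changes of -0.029, 0.0023 and 0.086. The part of these cell types in the member values was not tested.

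The genes whose levels ran most like each member were taken by Pearson's r over the 6 arrays among 2135 genes with an SD of at least 0.2. For Penk they were Pde7b, a cyclic AMP phosphodiesterase gene (r = 0.999), the potassium channel gene Kcna5 (r = 0.988) and the sulfotransferase gene Chst15 (r = 0.986). After the diet means were removed, r with Penk was 0.997 for Pde7b, 0.911 for Kcna5 and 0.917 for Chst15. For Pdyn they were the collagen gene Col11a1 (r = 0.980), the ubiquitin ligase gene Rnf152 (r = 0.975) and Nostrin (r = 0.967). Pnoc was matched by the transcription factor gene Cebpd (r = 0.990), the noncoding RNA Kcnq1ot1 (r = 0.982) and LOC102631979 (r = 0.976). Oprk1 was matched by the heat shock gene Hspa1b (r = 0.991), the neuropeptide Y receptor gene Npy2r (r = 0.980) and the neurokinin B precursor gene Tac2 (r = 0.966). For Oprl1 they were Ppfia4 (r = 0.985), Ccne1 (r = 0.981) and Usp29 (r = 0.973). These values describe 6 arrays that share their processing, and so many genes were compared that high values carry no test.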

How the data were processed

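Amygdala RNA of 6 mice was measured on 1 Affymetrix Mouse430_2 array each. The log2 values come from the table deposited by the authors. Per the submitters' processing notes the tools include GCRMA 2.28.0 and R 2.15.1, but their roles, options and any further steps are not given in the sources used here. That the scale is log2 was judged from the values (0.722 to 14.8, array medians 4.04 to 4.09); centring is unknown. Raw scanner files were not used, so no detection call was at hand; GCRMA can compress or stretch low values. The number of arrays limits the precision, and the labels number mice but name no litter or batch.

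Of 45101 probe sets, 64 were controls; 34958 had 1 gene symbol in the platform annotation, 932 several and 9211 none. Probe sets with a mean log2 level of at least 4 over all arrays were tested (22877) by a two-sided moderated fit with no term but diet (limma 3.58.1, R 4.3.3), with Benjamini-Hochberg adjustment over all of them. The fit was checked on simulated data. In lists each gene stood with its brightest probe set by mean over the 6 arrays. The genes named were all members, Oprd1, Pomc and Ogfr, up to 4 genes of each pathway list by smallest p, and the 3 genes most like each tested member; marker genes and Cpe were added after their values were seen. Members and lists were chosen with earlier results of these data known. Of the listed genes, Pcsk2, Lnpep, Grk2 and a few markers lacked a probe set of their own in the annotation used and were not analysed here. Sequences are RefSeq's, matched by symbol for 3 of the 6 genes.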

Additional observations from a re-analysis of the deposited data

How the results depend on the processing

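The 16 alternatives were other filters, quantile normalization, centring on the median, array weights, eBayes with trend and robust settings, 1 probe set or the mean of all probe sets per gene, the title number as a covariate, a floor at 4, and leaving out each mouse. They gave 106 values for the 7 tested members, of which 98 kept their direction, 8 reversed and 0 passed the adjusted threshold in limma. Other filters, trend and robust eBayes and 1 probe set per gene leave a probe set's log2 change as it was. So does the mean of all probe sets where a gene has 1, and the floor where all values lie above 4. The count of 98 therefore includes values that could not reverse. All 8 reversals belonged to Oprl1, whose differences lie near 0. With array weights 1422099_a_at gave 0.0011 and 1450486_a_at gave -0.043, and 1426204_a_at gave -0.0072 with quantile normalization and -0.014 averaged over its probe sets. With 1 mouse left out, 1422099_a_at ranged from -0.19 to 0.059, 1426204_a_at from -0.040 to 0.061 and 1450486_a_at from -0.19 to 0.21. The adjusted p of Penk ranged from 0.141 to 0.9999 over its alternatives.

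The number of probe sets past the adjusted threshold was 0, and 2 with a mean of at least 6, 3 with trend and robust eBayes, 1 with 1 probe set per gene, 2 with probe sets averaged per gene and 1 with the title number as a covariate. At an unadjusted p under 0.01 it was 349, and 550 with no filter, 628 with array weights and 176 (without zinc diet mouse 7) to 558 (without control mouse 1) with 1 mouse left out. At an unadjusted p under 0.05 it was 1460, and 2429 with no filter, 2345 with array weights, 937 with 1 probe set per gene, 846 with probe sets averaged per gene and 853 to 2241 with the same mice left out. The 80 values of the pathway list medians under the 16 alternatives, 8 of which were added for these medians after seeing the data, all moved by less than the spread between mice. Trend and robust eBayes and 1 probe set per gene leave these medians as they were, so those values could not move. The cause of the shifts in the counts was not tested beyond the smaller number of probe sets that a filter or 1 probe set per gene leaves. No paired analysis was possible because the diets share no replicate number. With no detection calls, the signal limits what can be said of Oprm1, Oprk1, Oprd1 and Pomc.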
